A study of Felis catus with 3 samples.

Results

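The machinery that transcribes, splices and translates RNA was described in 3 noninduced feline adipose-derived mesenchymal stem cell (ASC) cultures through 37 genes, of 21529 genes in the deposited tables. Members were the genes whose symbol in the gene table of the study starts with RPL, RPS, MRPL, MRPS, EIF, EEF, POLR, SNRP, SF3, SRSF, HNRNP, PRPF, DDX or DHX, with DDX58 and the S6 kinase genes (RPS6K) left out. This rule takes 38 genes, of which 37 are described. From the gene table, 1997 rows were used here, of which 1811 have a symbol, so the members are those with a place in these rows and not the whole machinery. The RefSeq annotation of the cat assembly Fca126_mat1.0 has 371 protein-coding symbols with these prefixes, 82 of which are RPL or RPS genes against 2 genes described, and 77 MRPL or MRPS genes against 6 members. The rule reads the symbols alone.

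The cultures, labelled Gray Boy, Luna and SPF2, were primary ASCs of different cats, each 1 culture and 1 library. The study took fat from specific pathogen-free (SPF) and from client-owned cats, and the labels used here do not state the source of each line. All were untreated and were grown in minimum essential medium alpha with 10% fetal bovine serum. The sample labels give passages 3 to 4, whereas the study describes these cultures as passage 3. Poly-adenylated RNA was sequenced with a strand-specific protocol, and the values are FPKM, fragments per kilobase of transcript and per 1000000 mapped fragments, so that levels of different genes can be compared per length. There is 1 condition and no repeat library of a line, so no test was possible and every SD is over the 3 lines (n = 3).

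The study gives the same approximate number of reads for each library. The number of fragments behind each FPKM is not in the tables used here, so no interval or detection limit is given. Among genes above 0 and below 0.15 FPKM in both lines, the most frequent ratio was 1.28 for Gray Boy to SPF2, 1.40 for Luna to SPF2 and 0.909 for Gray Boy to Luna. These ratios held for 6.76%, 5.13% and 16.0% of such genes. If they stand for single fragments, the weight of 1 fragment differed between lines, which was not tested. FPKM summed to 621797 to 688297 per line, highest in Luna, and 14151 to 14356 genes were above 0. Of the listed stromal markers, ENG (CD105) had 72.5, 117 and 73.9 FPKM in Gray Boy, Luna and SPF2 and COL5A1 had 178, 480 and 261 FPKM, whereas MCAM, of perivascular cells, had 14.4, 79.9 and 16.0 FPKM, and COL14A1 had 5.18, 0.586 and 1.58 FPKM. The 8 leukocyte markers summed to 6.22 to 9.60 FPKM per line, most of it from CD37 (5.03 to 7.70 FPKM), with CD2 and CD1C listed at 0 in every line. The endothelial marker TEK was at 0.0595 FPKM or less. Luna thus stood apart as the highest line in ENG, COL5A1 and MCAM, whereas in COL14A1 Gray Boy was the highest and Luna the lowest, and the part of these markers in the differences given here was not tested.

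A protein-coding gene is transcribed by RNA polymerase II, and its transcript is spliced by small nuclear ribonucleoproteins (snRNPs) with the help of SR proteins, heterogeneous nuclear ribonucleoproteins (hnRNPs) and RNA helicases of the DDX and DHX families. Initiation factors then bring the mRNA to the small ribosomal subunit, and elongation factors move the ribosome along it. Mitochondria keep ribosomes of their own, built from nuclear-encoded proteins, for the few proteins that their genome encodes. The core of this machinery is used in all growing cells, and mRNAs for cytosolic ribosomal proteins and elongation factors are among the most abundant of a cell.

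The 37 genes held 4525, 4709 and 4726 FPKM in Gray Boy, Luna and SPF2, which is 0.718% ± 0.030 (SD, n = 3 lines) of all FPKM. In bulk RNA, fewer cells of a type and less RNA per cell cannot be told apart. EEF2 and RPS6 alone held 57.5 to 58.8% of the members' FPKM in each line. By group, initiation and elongation had 1949 ± 48 FPKM in 6 genes, the cytosolic ribosome 1293 ± 39 FPKM from RPS6 alone of 2 genes, splicing 828 ± 36 FPKM in 12, RNA polymerase 239 ± 17 FPKM in 4, the mitochondrial ribosome 222 ± 6 FPKM in 6, and the remaining DDX or DHX genes 123 ± 5 FPKM in 7. The order of these sums was the same in Gray Boy and SPF2, whereas in Luna the mitochondrial ribosome (227 FPKM) was above the polymerase genes (222 FPKM). The sums depend on how many genes of a group are in the rows used here. They hold 2 of 82 RPL or RPS, 6 of 77 MRPL or MRPS and 4 of 32 POLR symbols of RefSeq. Their order is therefore not that of the whole groups.

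**Figure D1:**
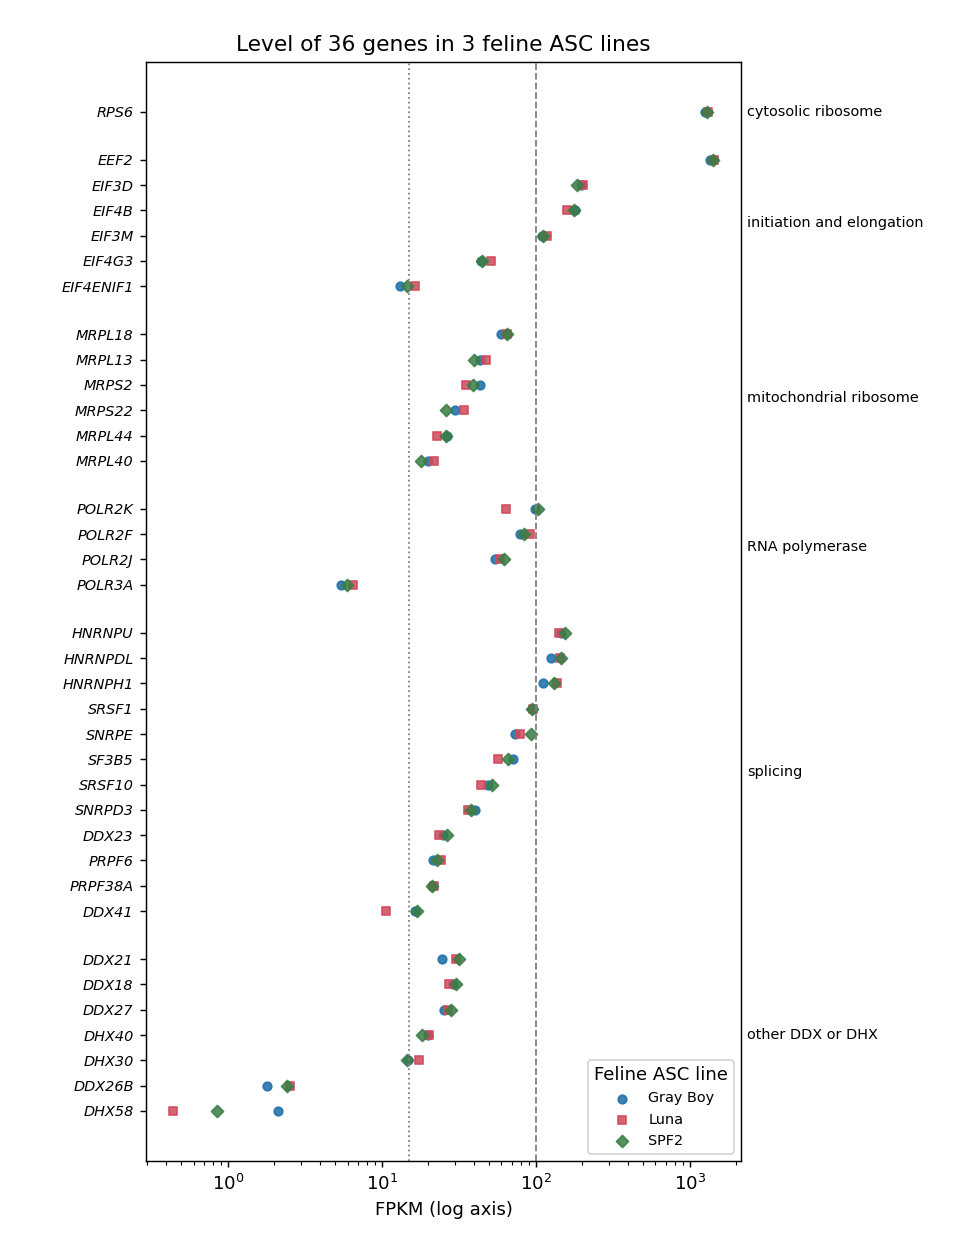
FPKM (log axis) of the 36 genes above 0 in the 3 lines, 1 row per gene and 1 point per line, ordered by group and level, with a dotted line at 15 FPKM and a dashed line at 100 FPKM. RPS6 and EEF2 lie at 1251 FPKM or more in every line, all 6 mitochondrial ribosome genes lie between the dotted and the dashed line, and POLR2K, DDX41 and DHX58 have the widest spread of points. RPL26L1, listed at 0 in every line, is not drawn.

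At the moderate level used by the study, 15 FPKM, 30 of the 37 genes were at or above it in all lines, where 22.1% of all genes and 30.4% of the genes with a symbol were. At 100 FPKM, the high level, 8 genes were at or above it in all lines against 3.59% of all genes. They were RPS6, EEF2, EIF3D, EIF4B, EIF3M, HNRNPU, HNRNPDL and HNRNPH1. None of the mitochondrial ribosome, polymerase or remaining DDX or DHX genes reached 100 FPKM in all lines. The 7 genes below 15 FPKM in a line were RPL26L1, EIF4ENIF1, POLR3A, DDX41, DHX30, DDX26B and DHX58, and of these EIF4ENIF1, DDX41 and DHX30 lay on both sides of it depending on the line.

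In the cytosolic ribosome, RPS6 (ENSFCAG00000002541), the small subunit protein phosphorylated by S6 kinases, had 1251, 1326 and 1302 FPKM in Gray Boy, Luna and SPF2 (1293 ± 39 FPKM, SD, n = 3). Its CV over the lines (coefficient of variation, the SD as a percent of the mean) was 2.98%, and it ranked between 66 and 71 of all genes in each line. In Felis Catus 8.0, the locus given for RPS6 is on chromosome D4 from 46349813 to 46429428, where the locus of DENND4C overlaps it. Ribosomal protein genes have processed copies elsewhere in mammalian genomes, and how reads shared with such copies were assigned was not found in the sources used here.

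RPL26L1, a paralog of the large subunit protein RPL26, was listed at 0 FPKM in all lines. The gene given this symbol (ENSFCAG00000001670) is at chromosome A3 from 103541738 to 103542958, and RefSeq places the gene of that symbol on another chromosome of its assembly. Of the other members, 35 had the same chromosome in both annotations and DDX26B had no RefSeq entry under this symbol. An exact 0 was common, with 29% of all genes and 14.2% of the genes with a symbol listed at 0 in every line.

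Among the translation factors, EEF2 (ENSFCAG00000000909), which moves the ribosome by 1 codon after each peptide bond, was the most abundant member with 1351, 1440 and 1424 FPKM in Gray Boy, Luna and SPF2. It ranked between 60 and 63 of all genes in each line and was above RPS6 in all of them. Its locus, on chromosome A2 from 2680919 to 3192762, spans 511844 bases, the longest span among the members. No other row used here overlaps it, but these are 1997 rows against 21529 genes, so overlap with the other genes was not checked. Whether a locus of this span holds EEF2 alone was not tested.

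The initiation factors were lower than EEF2 in every line. EIF3D, an eIF3 subunit that can bind the mRNA cap, had 197, 204 and 187 FPKM in the same order of lines. EIF4B, a cofactor of the helicase that unwinds the mRNA leader, had 181, 161 and 177 FPKM. EIF3D was above EIF4B in every line. EIF3M, a further eIF3 subunit, had 110, 118 and 112 FPKM.

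EIF4G3, a scaffold of the cap-binding complex, had 43.9, 51.3 and 44.7 FPKM. EIF4ENIF1, which carries the cap-binding protein into the nucleus and into P-bodies and represses translation, was the lowest of the group with 13.2, 16.5 and 14.6 FPKM. As deposited, 5 of the 6 factors were highest in Luna and EIF4B was lowest there. The median difference of the group, Luna minus Gray Boy, was 0.10 on the log2(FPKM + 1) scale. It was -0.05 with all lines brought to a summed value of 1000000 and -0.002 after quantile normalization, so its sign was set by the scale of the values. Over all genes with a mean of 15 FPKM or more the median was 0.03, -0.12 and -0.01 on these scales. The group was above it on each, by the least after quantile normalization. Of all genes with a mean of 15 FPKM or more, 54% were higher in Luna than in Gray Boy as deposited.

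The mitochondrial ribosome genes lay in a narrow band, with means of 20.0 to 63.6 FPKM. MRPL18, a large subunit protein, was the highest with 59.8, 65.3 and 65.5 FPKM in Gray Boy, Luna and SPF2. MRPL40, also of the large subunit, was the lowest with 20.0, 21.8 and 18.1 FPKM. Between them were MRPL13 (39.7 to 47.4 FPKM over the lines), MRPS2 (35.4 to 43.7 FPKM), MRPS22 (26.1 to 34.1 FPKM) and MRPL44 (22.9 to 26.5 FPKM).

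All 6 were at or above 15 FPKM in every line, and none reached 100 FPKM in any. The ranges of MRPL13 and MRPS2 overlapped, as did those of MRPS22 and MRPL44, so the order within these pairs was not resolved. In SPF2, 5 of the 6 were below their level in Gray Boy, all but MRPL18, with a median difference of -0.13 (log2 scale), which was -0.16 to -0.12 under the other scalings. Of the genes with a mean of 15 FPKM or more, 52.1% were higher in SPF2 than in Gray Boy, with a median difference of 0.01. Against Luna the 6 were split, with 3 higher and 3 lower in SPF2, where 46.6% of the genes at this level were higher.

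Of the polymerase genes, POLR2K (ENSFCAG00000001869), a small zinc-binding subunit shared by RNA polymerases I, II and III, had 99.6, 64.5 and 104 FPKM in Gray Boy, Luna and SPF2. Luna was low and the other lines were close together. POLR2F, another shared subunit, had 79.0, 92.3 and 83.9 FPKM and was highest in Luna. POLR2J, a subunit of polymerase II, had 54.2, 58.4 and 62.4 FPKM. POLR3A, the largest subunit of polymerase III and part of its catalytic centre, had 5.46, 6.54 and 5.97 FPKM, the lowest of the group by far.

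All 4 polymerase genes were higher in SPF2 than in Gray Boy, with a median difference of 0.10 (0.07 to 0.11 under the other scalings), where 52.1% of all genes with a mean of 15 FPKM or more were higher. POLR2F, POLR2J and POLR3A were also higher in Luna than in Gray Boy as deposited, and POLR2K was lower. Of all genes with a mean of 15 FPKM or more, 54% were higher in Luna. The group median was 0.16, and 0.02 with all lines brought to a summed value of 1000000. It was 0.16 with lines scaled to a common median and 0.12 after quantile normalization. Over all genes with a mean of 15 FPKM or more the median was 0.03, -0.12, 0.03 and -0.01 on these scales. The group was above it on each. The locus of POLR2K, on chromosome F2 from 45641116 to 45642832, spans 1717 bases.

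The splicing genes can be read in 3 tiers of level. The hnRNPs, which coat nascent transcripts and take part in splice site choice, were the highest. HNRNPU had 146, 141 and 156 FPKM in Gray Boy, Luna and SPF2, HNRNPDL had 126, 145 and 147 FPKM, and HNRNPH1 had 112, 138 and 132 FPKM. HNRNPU was above HNRNPDL in Gray Boy and SPF2 and below it in Luna, so their order was not resolved, whereas HNRNPH1 was below HNRNPDL in every line.

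The middle tier held the SR proteins and the core proteins of the snRNPs. SRSF1, an SR protein that promotes exon inclusion, had 95.1, 96.6 and 94.9 FPKM and the smallest CV of all members, 0.969%. SRSF10, an SR protein that represses splicing when dephosphorylated, had 49.3, 44.3 and 52.1 FPKM. SNRPE and SNRPD3, which sit in the same Sm ring around the small nuclear RNAs, had 73.9 to 93.4 and 36.3 to 40.1 FPKM. SF3B5, of the SF3b complex that recognises the branch point, had 71.2, 57.1 and 66.3 FPKM, and its locus of 259 bases was the shortest among the members.

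The low tier held proteins of the assembling spliceosome. DDX23, a helicase of the U5 snRNP, had 25.0, 23.4 and 26.7 FPKM, PRPF6, which bridges the snRNPs of the tri-snRNP, had 21.5, 24.2 and 23.0 FPKM, and PRPF38A, needed for spliceosome activation, had 21.1, 21.8 and 21.3 FPKM. DDX41 (ENSFCAG00000001542), a helicase found in the spliceosome and also described as a sensor of cytosolic DNA, had 16.5, 10.6 and 17.0 FPKM. As for POLR2K, Luna was low and the other lines were close together. The locus of DDX41 is on chromosome A1 from 173057701 to 173063861.

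The remaining helicases have other roles. DDX21, DDX18 and DDX27, nucleolar helicases of ribosomal RNA synthesis and processing, had similar levels of 24.6 to 31.8, 27.3 to 30.3 and 25.5 to 28.0 FPKM over the lines. Their order changed between lines: DDX18 was highest in Gray Boy and DDX21 in Luna and SPF2. DHX40 had 18.3 to 20.3 FPKM, and DHX30, which acts in mitochondrial ribosome assembly, had 14.7 to 17.4 FPKM. DDX26B, which despite its symbol is a paralog of the Integrator subunit INTS6, had 1.80, 2.52 and 2.43 FPKM.

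DHX58 (ENSFCAG00000002145), also called LGP2, differs from the others in being a cytosolic receptor of the RIG-I family that binds viral RNA and is interferon-inducible. It was the lowest member above 0, with 2.11, 0.443 and 0.851 FPKM in Gray Boy, Luna and SPF2, at chromosome E1 from 42746773 to 42754732. DDX58, which encodes RIG-I and was left out by the rule, had 8.11, 5.31 and 6.93 FPKM. Both genes were highest in Gray Boy and lowest in Luna, and whether these differences exceed the spread between libraries of a line could not be tested.

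**Figure D2:**
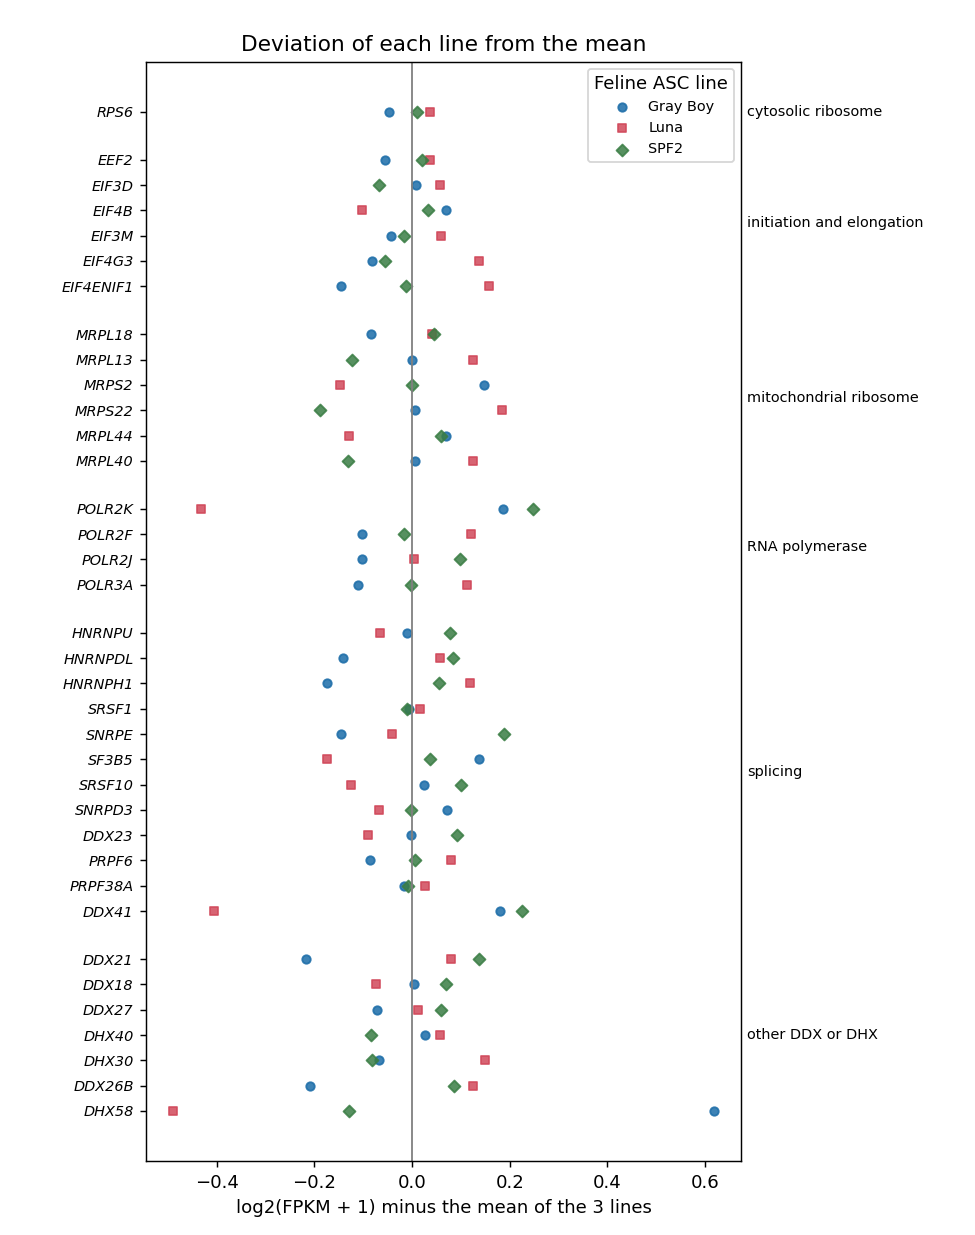
Deviation of each line from the mean of the 3 lines, in log2(FPKM + 1), for the 36 genes above 0, 1 row per gene and 1 point per line. Most points lie close to 0, POLR2K and DDX41 have Luna far to the left of the other lines, and DHX58 has Gray Boy far to the right.

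The highest value divided by the lowest, both as FPKM + 1, reached 1.5 in 3 of the 37 genes, where 15.5% of all genes reached it. They were DHX58 with 2.16 (4.77 as a ratio of FPKM), POLR2K with 1.60 and DDX41 with 1.55. The next highest were MRPS22 with 1.30 and DDX21 with 1.28. Of the 36 members with a mean of 1 FPKM or more, the same 3 genes passed, against 25.6% of all such genes. Of the 31 members with a mean of 15 FPKM or more, POLR2K alone passed, against 20.6%.

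By pairs of lines, POLR2K and DHX58 were at least 1.5 times lower in Luna than in Gray Boy (5.58% of all genes were) and no member was as much higher (5.29%). DDX41 lay at the threshold in this pair, with a ratio of Gray Boy to Luna of 1.55 in FPKM and of just under 1.5 in FPKM + 1. POLR2K and DDX41 were at least 1.5 times higher in SPF2 than in Luna (5.26%) and no member was as much lower (5.4%). DHX58 was at least 1.5 times lower in SPF2 than in Gray Boy (3.03%), and no member was as much higher (1.99%). The pairs share lines, so these counts are not independent. Without Luna, DHX58 was the only member left at a ratio of 1.5 or more (5.03% of all genes were). Without Gray Boy, POLR2K and DDX41 remained (10.7%), and without SPF2, POLR2K and DHX58 remained (10.9%), with DDX41 just under 1.5.

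The median CV was 7.99% over the 36 members above 0. Of the members with a mean of 15 FPKM or more it was 7.06% (n = 31), where over all 5324 genes at this level it was 10.6%. By group it was 5.31% for initiation and elongation, 7.31% for splicing, 8.47% for RNA polymerase, 9.04% for the mitochondrial ribosome and 9.80% for the remaining DDX or DHX genes. Within the splicing genes it ran from 0.969% in SRSF1 to 24.0% in DDX41, so the groups overlapped widely. Left out in turn, Luna changed the medians the most. Without it those at 15 FPKM or more were 4.32% for the members and 6.46% for all genes, against 6.80% and 9.46% without Gray Boy and 6.23% and 10.2% without SPF2.

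**Figure D3:**
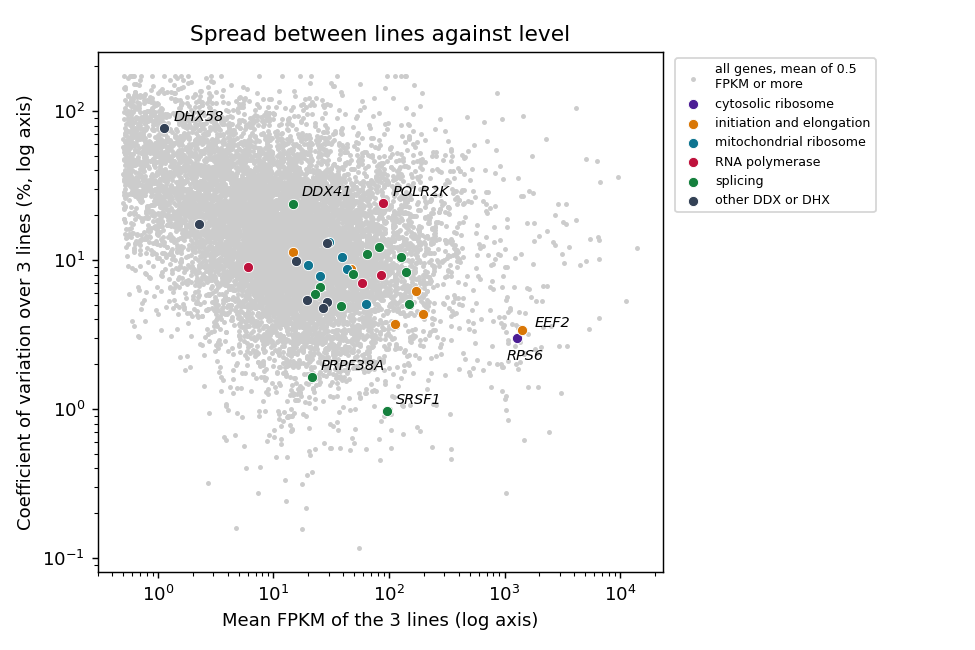
CV over the 3 lines in percent against mean FPKM, both on log axes, for all genes with a mean of 0.5 FPKM or more (grey) and the 36 members above 0, coloured by group. POLR2K (24.2%), DDX41 (24.0%) and DHX58 (76.6%) have the highest CV of the members and SRSF1 (0.969%) and PRPF38A (1.65%) the lowest.

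Among the 36 genes above 0, Luna was the highest line for 18 and the lowest for 12, where it was highest for 39.6% and lowest for 37% of all genes above 0 in a line. Gray Boy was highest for 6 (31.2%) and lowest for 17 (33.8%). SPF2 was highest for 12 (29.2%) and lowest for 7 (29.2%). The median difference over the 37 genes was 0.08 for Luna minus Gray Boy, 0.06 for SPF2 minus Gray Boy and 0.00 for SPF2 minus Luna (log2 scale), beside medians of 0.03, 0.01 and -0.02 over all genes with a mean of 15 FPKM or more. With all lines brought to a summed value of 1000000, the median of those genes in Luna minus Gray Boy was -0.12 and that of the members -0.05, so the members stayed 0.06 above it on both scales. After quantile normalization they were 0.03 above it. In SPF2 minus Luna, the sum of 1000000 gave 0.10 for the members and 0.09 for those genes.

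A ratio of 2 genes within a line does not change when a line is multiplied by a factor. The ratio of POLR2F to POLR3A was the most even of those computed, with 14.5, 14.1 and 14.0 in Gray Boy, Luna and SPF2. EIF3D to EIF3M, which belong to 1 complex, had 1.79, 1.72 and 1.66. For both pairs the spread between lines was far smaller than the distance from equal levels.

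In the Sm ring, SNRPE was above SNRPD3 by 1.84, 2.19 and 2.45, and the SR pair SRSF1 to SRSF10 had 1.93, 2.18 and 1.82. POLR2K to POLR2F had 1.26, 0.699 and 1.24, so that the order of these shared polymerase subunits was reversed in Luna. PRPF6 to DDX23 had 0.860, 1.03 and 0.860, with Luna again on the other side of 1. In the mitochondrial ribosome, Luna had the lowest ratio of MRPS2 to MRPS22 (1.46, 1.04 and 1.51) and of MRPL44 to MRPL40 (1.32, 1.05 and 1.45).

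**Figure D4:**
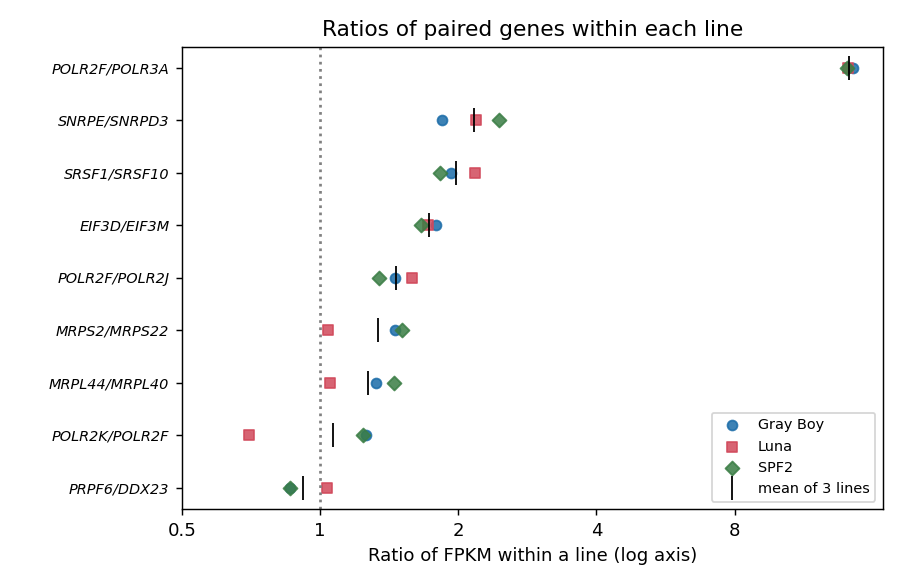
Ratio of FPKM of 9 pairs of genes within each line (log axis), 1 row per pair and 1 point per line, with a black bar at the mean of the 3 lines and a dotted line at equal levels. POLR2F/POLR3A lies near 14 in every line, and POLR2K/POLR2F is 0.699 in Luna and above 1 in the other lines.

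Further genes of these processes, which the prefixes do not take, were followed as 5 lists with 46 genes. Of them 28 reached 15 FPKM in all lines, where 22.1% of all genes and 30.4% of the genes with a symbol did. At or above 100 FPKM in all lines were 3, against 3.59% of all genes. A ratio of highest to lowest FPKM + 1 of 1.5 was reached by 0 of the 46. Of all genes 15.5% reached it, and of those with a mean of 1 FPKM or more 25.6%. The tRNA synthetases, which charge tRNAs with amino acids, had 8 of 9 genes at 15 FPKM or more, from HARS2, a mitochondrial enzyme, with 3.43 ± 0.62 FPKM (SD, n = 3) to EPRS, which charges glutamate and proline tRNAs, with 155 ± 13 FPKM. Their median CV was 4.53%. Over all genes it was 13.3% at a mean of 1 FPKM or more and 10.6% at 15 FPKM or more.

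The list of spliceosome and pre-mRNA binding genes had 9 of 13 at 15 FPKM or more, from GEMIN5, of the complex that assembles snRNPs, with 12.9 ± 2.2 FPKM to PTBP1, a repressor of exon inclusion, with 124 ± 7 FPKM. The ribosome and rRNA processing list had 5 of 11, from POP1, of RNase P and RNase MRP, with 5.65 ± 0.895 FPKM to MYBBP1A, a nucleolar regulator of rRNA synthesis, with 49.8 ± 2.4 FPKM. The transcription list had 2 of 6, from TAF5 (1.69 ± 0.27 FPKM), of the TFIID complex, to INTS3 (32.8 ± 1.9 FPKM), of Integrator. The mRNA decay and translation control list had 4 of 7, from the decapping cofactor EDC3 (6.80 ± 0.595 FPKM) to LARP1, which binds mRNAs of ribosomal proteins, with 66.5 ± 2.7 FPKM. Of all genes 22.1%, and of the genes with a symbol 30.4%, were at or above 15 FPKM in all lines. The lists hold few genes each, so these counts do not rank the processes.

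Closest to a ratio of 1.5 in these lists, and named after their values were seen, were LSM5, of the ring on the U6 RNA, with 43.8, 32.2 and 48.0 FPKM in Gray Boy, Luna and SPF2, and POP4, of RNase P and RNase MRP, with 18.6, 12.3 and 16.8 FPKM. Both were lowest in Luna. The next were lowest in Gray Boy: NOL9, a nucleolar kinase of rRNA processing, had 15.1, 22.2 and 18.1 FPKM, MED9, of Mediator, had 22.2, 24.2 and 31.6 FPKM, and TAF1A, of the polymerase I factor SL1, had 2.04, 3.21 and 2.67 FPKM. Of the S6 kinase family genes left out by the rule, RPS6KA4 had 96.7, 75.6 and 87.5 FPKM, RPS6KA5 had 0.229, 0.0835 and 0.244 FPKM, and RPS6KL1 had 1.06, 0.368 and 0.439 FPKM, a ratio of 1.51 on the FPKM + 1 scale.

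The members lay on 17 chromosomes, with at most 5 on 1 of them (C1), and 3 of the loci overlapped another row used here: RPS6 with DENND4C, MRPS2 with C9orf116 and MRPS22 with COPB2. With the strand-specific protocol reads of opposite strands can be told apart, but whether the quantification used the strand was not found in the sources used here.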

How the data were processed

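Poly-adenylated RNA of 3 feline ASC cultures was sequenced with a strand-specific protocol, 1 library per culture. The authors used HISAT for alignment to ICGSC Felis Catus 8.0, Cufflinks for quantification and Cuffnorm for normalization, and deposited FPKM per gene for 21529 Ensembl identifiers. Versions, annotation release and normalization method were not given in the sources used here. Symbols and loci were taken from the gene table of the study (1997 rows used here), and no value from it was used. RefSeq symbols and chromosomes were read from a table of another assembly, without coordinates.

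Mean, SD, CV, ratios, ranks and medians were computed with Python 3.11.15, pandas 2.3.3 and numpy 2.4.6 and drawn with matplotlib 3.10.9. Fold differences were computed on FPKM + 1 and differences as log2(FPKM + 1). No filter on low values was used unless stated. The study gives the same approximate number of reads for each library. Mapped fragments per library or gene are not in the tables used here, so precision could not be given, and the weight of 1 fragment may differ between lines. The 3 samples form 1 group, so no test was run. The ratio call was tested on simulated data with little noise and with changes well above 1.5 times in well expressed genes. That test does not measure its accuracy near 1.5 or at low values. The rule takes 1 further gene, which was left out of the sums and counts over members and is not reported here. All 37 members, the highest and lowest gene of each further list, genes at a ratio of 1.5 or more and the genes left out by the rule were named. Members, groups and lists were chosen with earlier results of these data known. Alternatives were other pseudocounts, filters, thresholds and scalings and leaving out each line.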

Additional observations from a re-analysis of the deposited data

How the results depend on the processing

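Of 85 alternative values, 75 stayed within a limit set for each result: the spread between lines, or 1.5 times for counts. For the median CV the limit was instead the SD of the CV over members, 12.5, which is above the median CV of 7.99%. Some values could not pass their limit. A share does not change when a line is multiplied by a factor, and leaving out 1 of 3 lines moves a mean share by less than its SD. The count of 75 is therefore not a measure of robustness. Leaving the 10 highest genes out of the total raised the share of all FPKM held by the members to 0.818%, and by group to 0.227% (cytosolic ribosome), 0.342% (initiation and elongation), 0.146% (splicing), 0.0420% (RNA polymerase), 0.0390% (mitochondrial ribosome) and 0.0216% (remaining DDX or DHX genes). By construction the smaller total raises every share. With a threshold 1.5 times higher than 100 FPKM, 4 members were above it in all lines. The count of members at a ratio of 1.5 or more was 1 to 2 when 1 line was left out, and 1 (DHX58) without Luna. Scaling the sum of every line to 1000000 turned the median difference of the members, Luna minus Gray Boy, to -0.054. The same 3 genes (POLR2K, DDX41 and DHX58) passed the ratio under both pseudocounts, the filter and all 3 scalings. No paired analysis was possible because the samples form a single group with 1 library per line. The unknown number of fragments limits the low genes most, DHX58, DDX26B and POLR3A among the members.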
